A study of Mus musculus with 5 samples.

Results

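Monocytes of the Ccr2 Ly6c2 type were sought among single cells of mouse cortex, in 1 sham library and in 4 libraries taken 1, 3, 7 and 14 days after traumatic brain injury (TBI). A member was a barcode that reached 500 unique molecular identifiers (UMIs) and 200 genes, with a mitochondrial share of UMIs no higher than 20%. It had to hold a UMI of Lyz2 and of at least 2 of Ccr2, Ly6c2, Plac8, Chil3, Vcan and F10. It also had to hold 0 UMIs of Tmem119 and P2ry12 (microglia), Cd3e (T cells), Cd79a (B cells) and Retnlg (neutrophils). Of the 58411 barcodes that met the limits on UMIs, genes and mitochondrial share, 815 were members, or 1.40%. Sham held 14 of them, day 1 held 27, day 3 held 335, day 7 held 82 and day 14 held 357.

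Classical monocytes leave the bone marrow through the chemokine receptor encoded by Ccr2, which binds the ligand made from Ccl2. They carry the surface antigen Ly6C, and enter injured tissue from the blood. In tissue they are known to take up debris and dying cells, to release chemokines and cytokines, and to become macrophages or antigen-presenting cells while their monocyte genes are shut down. Microglia arise separately, from the embryonic yolk sac, and lack Ccr2.

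All mice were C57BL/6J. By their titles, the 4 libraries after TBI come from the injury site, while the sham title gives no location. The number of mice behind each library, their sex and their age are not given in the sources used here. Cortical tissue was dissociated with papain and DNase, cleared of debris on Percoll and profiled with 10x Genomics 3′ v3 chemistry, which counts RNA molecules per droplet barcode. With 1 library in each group, nothing could be tested against replicate spread. Every comparison describes 2 libraries or 2 sets of barcodes, and every interval is a 95% range that covers counting error only.

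Sequencing depth went up from sham to day 14. The kept barcodes numbered between 9877 and 12705 per library, and their median depth was 774, 1757, 3258, 7279 and 8739.5 UMIs from sham to day 14. Members had a median of 1024, 2274, 4826, 6813.5 and 11131 UMIs. A rule that asks for detected genes is met more easily by a deep barcode, and also by free RNA in the droplets. Lyz2 itself was detected in 5.30% of kept barcodes in sham, 10.2% at day 1, 37.0% at day 3, 79.0% at day 7 and 82.3% at day 14. No barcode was a member in more than 1 library.

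The name was checked first, because the rule did not mean the same in each library. Oligodendrocyte-gated barcodes, which should lack Lyz2, served as a rough measure of free RNA. Their median Lyz2 level was 0 UMIs per 10000 in sham and at days 1 and 3, 1.04 at day 7 and 1.18 at day 14. The median of members was 108 per 10000 in sham, 45.5 at day 1, 34.7 at day 3, 3.55 at day 7 and 26.1 at day 14. At day 7 the members' median thus lay below 4.44 per 10000, the level that the highest 10% of oligodendrocyte-gated barcodes reached. Of the day 7 members, 21 (25.6%) were themselves oligodendrocyte-gated, against 27 (7.56%) at day 14, 1 at day 3 and 0 in sham and at day 1.

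**Figure D1:**
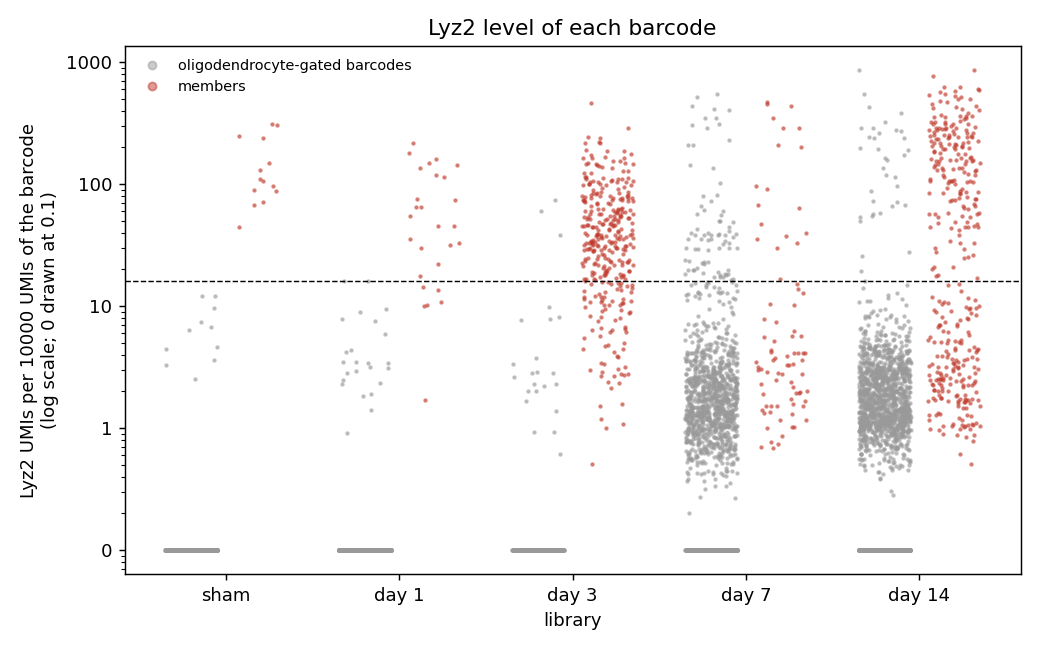
Lyz2 UMIs per 10000 UMIs of a barcode on a log axis, by library, with 1 point per barcode for members (red) and oligodendrocyte-gated barcodes (grey); the dashed line marks 16 per 10000. Members of sham stand above the line, most of day 7 lie within the oligodendrocyte range, and day 14 shows a high and a low group.

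The day 14 members fell into a high and a low group of Lyz2 level. A level of 16 Lyz2 UMIs per 10000 was therefore used to describe members with high Lyz2 apart, and it was chosen after the levels were seen. The Lyz2-high members numbered 14 in sham, 21 at day 1, 254 at day 3, 19 at day 7 and 187 at day 14. Since this level is a line through a range and not a cell type, the 116 members of day 3 and the 34 of day 14 that lay between 8 and 32 per 10000 could fall on either side.

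Markers of other cell classes were counted in each member, and 3 detected markers of 1 class were taken as a sign of that class. At day 3, 45 members carried 3 neutrophil markers, 33 carried 3 astrocyte markers and 28 carried 3 microglial markers. At day 7, 38 of 82 carried microglial markers and 38 carried astrocyte markers. At day 14, 118 of 357 carried microglial markers, 37 those of T or natural killer (NK) cells and 34 those of dendritic cells. In all, 3 of 14 members in sham, 12 of 27 at day 1, 102 of 335 at day 3, 67 of 82 at day 7 and 204 of 357 at day 14 carried markers of some other class, border macrophages not counted. At day 1 these were astrocyte markers in 6 members and neutrophil markers in 4. The share was 21.4% in sham, 44.4% at day 1 and 30.4% at day 3. Markers were counted at full depth, which differed between libraries, so these shares do not rank the libraries by purity. The day 7 set is called by its rule only. The day 14 set is given with and without its 170 members of low Lyz2, which held 35 of the 37 with T or NK markers and 31 of the 34 with dendritic cell markers. The Lyz2-high members of day 14 were mixed too. Markers of some other class were found in 92 of 187 (49.2%), and they held 73 of the 118 members with microglial markers. At day 3 the Lyz2-high members with markers of some other class were 67 of 254 (26.4%).

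**Figure D2:**
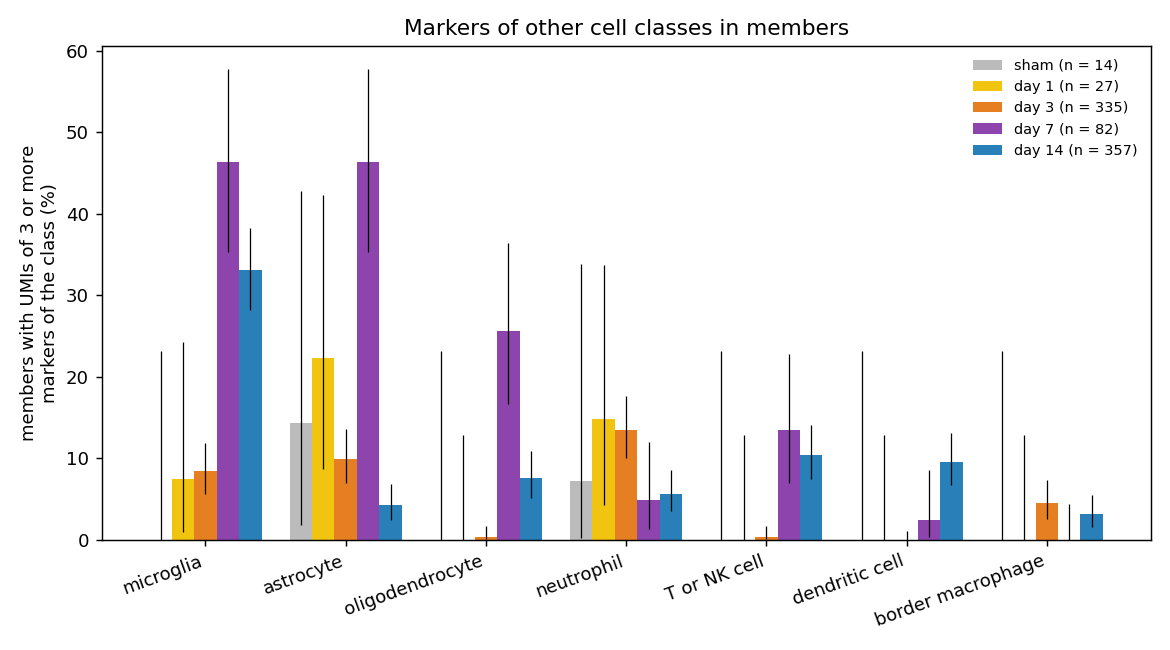
Share of members (%) with UMIs of at least 3 markers of another cell class, by class and library; bars are shares and lines their exact 95% binomial intervals. Microglial and astrocyte markers each reach 46.3% at day 7, T or NK cell markers appear at days 7 (13.4%) and 14 (10.4%), and dendritic cell markers are most frequent at day 14 (9.52%). Markers were counted at full depth, which differs between libraries.

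From sham to day 14, members made up 0.121%, 0.213%, 3.39%, 0.664% and 2.99% of kept barcodes. The exact binomial intervals were 0.0664 to 0.204, 0.140 to 0.309, 3.04 to 3.77, 0.528 to 0.823 and 2.69 to 3.31, so that day 3 and day 14 overlapped each other and stood apart from the other libraries. Because depth rose with time, the rule, its exclusion genes included, was also applied to barcodes thinned at random to 500 UMIs. Of those that passed, members were 53 of 66 at day 3, 5 of 17 at day 7 and 40 of 76 at day 14. The rest held an exclusion gene at full depth. With thinning the shares were 0.130%, 0.0866%, 0.668%, 0.138% and 0.636%. Day 3 and day 14 were the highest libraries on both scales, and the intervals of the thinned shares at day 3 (0.517 to 0.849) and day 14 (0.502 to 0.796) overlapped. By the Lyz2-high members the shares were 0.121%, 0.165%, 2.57%, 0.154% and 1.57%. The exclusion genes removed 164 barcodes that otherwise met the rule at day 3, 270 at day 7 and 1103 at day 14, of which 796 at day 14 held Cd3e. On the edge of the rule, 174 members at day 3 and 234 at day 14 held exactly 2 of the 6 genes, while 325 and 578 barcodes that met the other conditions held 1 of them.

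The genes of the rule describe the members and are no finding. Levels are given as CPM, the UMIs of a gene per 1000000 UMIs summed over members. Lyz2, which encodes lysozyme and lies on chromosome 10 (GRCm38, chr10:117277331-117282321, minus strand), stood at 14265, 6802, 5898, 8172 and 12859 CPM from sham to day 14. Ccr2 (chr9:124101950-124113557, plus strand) stood at 1111, 601, 132, 255 and 516 CPM. Its lowest level was at day 3. Ly6c2 (chr15:75108158-75111970, minus strand) stood at 3975, 909, 443, 248 and 327 CPM. Plac8, a gene of myeloid and lymphoid cells, stood at 5671, 2170, 575, 564 and 1137 CPM.

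Chil3, which encodes the chitinase-like protein Ym1, had its highest level at day 3, with 1052, 924, 1700, 60.2 and 85.5 CPM from sham to day 14. In microglia-gated barcodes of day 3 it stood at 80.1 CPM and in oligodendrocyte-gated ones at 20.2 CPM. Vcan, a matrix proteoglycan, and F10, coagulation factor X, peaked in the 27 members of day 1 at 279 and 381 CPM. Ly6c2 has the near-identical neighbour Ly6c1, an endothelial gene, and Lyz2 has the neighbour Lyz1, so reads shared within a pair are uncertain. Members of day 3 held 1.11 CPM of Ly6c1 and 4.43 CPM of Lyz1.

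The pairs of rule genes that brought barcodes into the set differed by library. In sham, 13 of 14 members held Ly6c2 with Plac8. At day 3 the most frequent pair was Ly6c2 with Chil3, in 141 of 335 members, followed by Plac8 with Chil3 in 114. At day 14 it was Ccr2 with Plac8, in 216 of 357 members, while Ly6c2 with Chil3 was found in 34. The members of day 3 and day 14 thus differ by the genes through which they entered.

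Classical monocyte genes outside the rule were read against microglia-gated barcodes of the same library, which share its free RNA. Median depth was 4826 UMIs in members and 3739 in microglia-gated barcodes at day 3. It was 6813.5 and 7951 at day 7, and 11131 and 10522 at day 14. Genes were measured where the mean level of the 2 sets was at least 20 CPM, and were called at a ratio of 2-fold or more. At day 3, 16 of the 18 measured genes of the 20 in this list were at least 2-fold higher in members, against 4.98% of all 5720 measured genes, of which 13% were lower. The list's median log2 ratio was 2.78, beside -0.16 over all measured genes. At day 7 it was 15 of 18 against 6.01% of 6667 genes (6.75% lower), with a median of 2.72. At day 14 it was 15 of 19 against 6.23% of 5712 genes (6.13% lower), with a median of 2.46. In Lyz2-high members 16 of 18 genes at day 3 and 16 of 19 at day 14 were higher, with medians of 2.89 and 2.94. Over all genes 5.16% and 5.26% were higher there, and 16.4% and 6.79% lower. Members were chosen by classical monocyte genes of the rule, so higher monocyte genes outside it partly follow from the choice.

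Hp, which encodes haptoglobin, stood at 143 CPM in members and 12.3 CPM in microglia-gated barcodes of day 3, 43.0 against 2.12 CPM at day 7, and 71.3 against 4.60 CPM at day 14. S100a4, a calcium-binding protein of motile cells, stood at 893 against 133 CPM, 215 against 12.3 CPM and 536 against 31.5 CPM at the same days. Emb, which encodes embigin, stood at 320 against 38.1 CPM, 80.3 against 6.44 CPM and 166 against 20.5 CPM. Each of these 3 genes was higher in members in all 3 libraries, with no overlap of the counting intervals. Outside the list, Napsa, which encodes the aspartic protease napsin A, had log2 ratios of 3.38, 4.26 and 4.40.

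F13a1, the A chain of coagulation factor XIII, stood at 367 against 34.4 CPM, 83.2 against 20.5 CPM and 79.7 against 45.3 CPM at days 3, 7 and 14. Its log2 ratio at day 14 was 0.82 (0.65 to 0.98) over all members and 1.64 (1.47 to 1.80) over Lyz2-high members. The Lyz2-low members of day 14 held 1 F13a1 UMI in all. Microglial genes were low in members. Siglech, a sialic-acid-binding receptor, stood at 6.08 CPM in members and 437 CPM in microglia-gated barcodes at day 3. Gpr34, a receptor for lysophosphatidylserine, stood at 6.64 against 165 CPM at day 3 and 25.3 against 475 CPM at day 14. Microglia-gated barcodes were chosen by P2ry12 or Tmem119, which members lack by rule, so low microglial genes partly follow from the choice. With trimmed-mean (TMM) scaling the genes called higher and lower were 420 and 514 at day 3, against 285 and 743 without, then 282 and 624 against 401 and 450 at day 7, and 300 and 449 against 356 and 350 at day 14.

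Macrophage-gated barcodes of the same library held Lyz2 and macrophage genes but fewer than 2 of the 6 rule genes. At day 3, 112 genes (2.04% of 5503) were at least 2-fold higher in members and 340 (6.18%) were lower. TMM scaling made these 165 and 278. Of 18 classical monocyte genes 11 were higher, with a median log2 ratio of 1.12 beside -0.04 over all genes. The 2 sets were split by monocyte genes of the rule, so this partly follows from the split. Il1b was higher in members (563 against 132 CPM). So were Il1r2 (201 against 19.4 CPM), a decoy receptor for interleukin 1, and Slpi (109 against 13.8 CPM), a protease inhibitor. Of the 335 members of day 3, 45 carried 3 neutrophil markers, and their part in these levels was not tested. Arg1, which encodes arginase 1, stood at 1041 CPM in members and 614 CPM in macrophage-gated barcodes of day 3, and Hmox1 at 1822 and 1824 CPM. At days 7 and 14 the macrophage-gated barcodes were led by genes of other cells, such as Ttr of the choroid plexus, and were read no further. At day 7, 12.4% of genes were at least 2-fold higher and 13.4% lower in members, and at day 14 11% and 21.3%, or 1001 and 1069 genes with TMM scaling against 705 and 1359 without.

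The 14 sham members were few and shallow, with 17105 UMIs in all, so that 1 UMI was worth 58.5 CPM. Ly6c2 was found in 14 of 14 and Plac8 in 13. S100a8 at 10348 CPM and S100a9 at 22859 CPM, the subunits of calprotectin, all came from 1 member, as did Camp (5963 CPM) and Ngp (3332 CPM), genes of neutrophil granules. Arg1, Gpnmb and Spp1 had 0 UMIs in sham members, which with a limit of 3 UMIs allows levels of up to 175 CPM. Sham and day 1 held fewer than 50 members, so no ratio to another library was computed and their levels are given for description.

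The levels of a few chemokine and repair genes in the 27 members of day 1 are given as a description. Cxcl2, a ligand for the neutrophil receptor Cxcr2, stood at 6348 CPM (5764 to 6975) and had UMIs in 19 of 27 members. Ccl2, the ligand of Ccr2 itself, stood at 3518 CPM (3087 to 3993), and the chemokine Ccl4 at 3665 CPM (3225 to 4149). Arg1 stood at 2961 CPM (2567 to 3399), Fn1, which encodes fibronectin, at 2170 CPM (1834 to 2549) and Thbs1, thrombospondin 1, at 1862 CPM (1552 to 2215). Microglia-gated barcodes of the same library held 115 CPM of Cxcl2, 11.1 CPM of Arg1 and 32.3 CPM of Thbs1. Their Ccl4 was higher than in members, at 9118 CPM. Markers of another class were carried by 12 of these 27 members, and their part in these levels was not tested. No single member held more than 20.3% of the UMIs of Arg1 or 16.2% of those of Cxcl2.

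Day 14 was set against day 3, the 2 libraries with over 50 members of high Lyz2. This comparison was added after the counts of members were known. Over all members 596 of 5553 measured genes (10.7%) were at least 2-fold higher at day 14 and 451 (8.12%) were lower, or 539 and 548 with TMM scaling. Over Lyz2-high members 531 of 5270 (10.1%) were higher and 405 (7.69%) were lower, or 515 and 425 with TMM scaling, and the values that follow are from these 187 and 254 members unless stated. The median over all measured genes was -0.03 on the log2 scale, so that a list at 0 did not stand apart.

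Chemokine and inflammatory genes were lower at day 14. Of 15 measured chemokine genes of 16, 8 were at least 2-fold lower and 5 higher, with a median log2 ratio of -1.88. Cxcl2 stood at 6493 CPM in the Lyz2-high members of day 1, 1921 at day 3, 238 at day 7 and 81.4 at day 14. Its log2 ratio between day 14 and day 3 was -4.56 (-4.78 to -4.35). In barcodes thinned to 500 UMIs, 34.6% of members at day 3 and 2.67% at day 14 had a Cxcl2 UMI, beside 1.86% and 0.322% of oligodendrocyte-gated barcodes.

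Ccl2 stood at 3490, 946, 152 and 55.5 CPM from day 1 to day 14, with a log2 ratio of -4.09 (-4.36 to -3.84) between day 14 and day 3, or -5.13 with the thinned rule. In microglia-gated barcodes Ccl2 stood at 390 CPM at day 3 and 169 CPM at day 14, so members held more than microglia-gated barcodes at day 3 and less at day 14. Pf4, the chemokine platelet factor 4, stood at 2524 CPM at day 3 and 228 CPM at day 14, a log2 ratio of -3.47, or -6.24 with the thinned rule. Of 12 measured inflammatory cytokine and NF-kB genes of 15, 7 were lower and 3 higher, with a median of -1.20. Tnf, which encodes tumour necrosis factor, stood at 191 CPM at day 3 and 54.3 CPM at day 14. Il1b, interleukin 1 beta, was not 2-fold apart, at 516 and 398 CPM.

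Arg1 was much lower at day 14, by an amount that depended on the choice of members. It stood at 3104 CPM in Lyz2-high members of day 1, 1085 at day 3, 0 at day 7 and 20.2 at day 14. The log2 ratio between day 14 and day 3 was -5.75 (-6.19 to -5.34), the lowest of the genes that reached 100 CPM in 1 of the 2 sets. It was -2.14 with the rule applied to 500 thinned UMIs, where S100a9 (-8.18), Lcn2 (-6.83) and Il1r2 (-6.40) were lower. Without members that carried markers of another class the Arg1 ratio was -10.1. In that setting S100a9 was -1.13, Il1r2 -2.05 and Lcn2 -3.91, and S100a9 is among the neutrophil markers counted above. At day 14 Arg1 came from 49 UMIs, of which 51.0% lay in 1 member, while no member of day 3 held more than 3.91%. Microglia-gated barcodes held 108 CPM at day 3 and 14.4 CPM at day 14. In the list of alternative activation genes, which Arg1 belongs to, 5 of 12 were measured, with 3 lower and 2 higher, and the median of -1.06 became 2.06 when members with markers of another class were left out.

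Some genes of iron handling, matrix and calcium binding were also lower. Of 7 measured iron and heme genes of 9, 2 were at least 2-fold lower and 1 higher, with a median of -0.73, which ranged from -0.86 to -0.16 over the alternatives. Hmox1, the heme-degrading enzyme heme oxygenase 1, stood at 304, 2060, 213 and 126 CPM from day 1 to day 14, so its level was highest at day 3. Its log2 ratio was -4.03 (-4.20 to -3.86). Ftl1, the ferritin light chain, stood at 18744 CPM at day 3 and 9397 CPM at day 14. Of 11 measured matrix and wound repair genes of 13, 6 were at least 2-fold lower and 1 higher, with a median of -1.06.

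Thbs1 stood at 1267 CPM at day 3 and 122 CPM at day 14, and Fn1 at 671 and 322 CPM. Of 6 S100 genes 4 were lower, with a median of -1.12, or -0.45 with the thinned rule. S100a8 stood at 1045 and 76.5 CPM, but 57.0% of its day 14 UMIs lay in 1 member. It is also a neutrophil marker. Of the Lyz2-high members, 31 of 254 at day 3 and 18 of 187 at day 14 carried 3 neutrophil markers. Their part in this level was not tested. Of the 19 immediate early and heat shock genes, which also respond to tissue dissociation, 9 were lower and 1 higher, with a median of -0.84. Fos stood at 3477 CPM at day 3 and 1249 CPM at day 14.

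**Figure D3:**
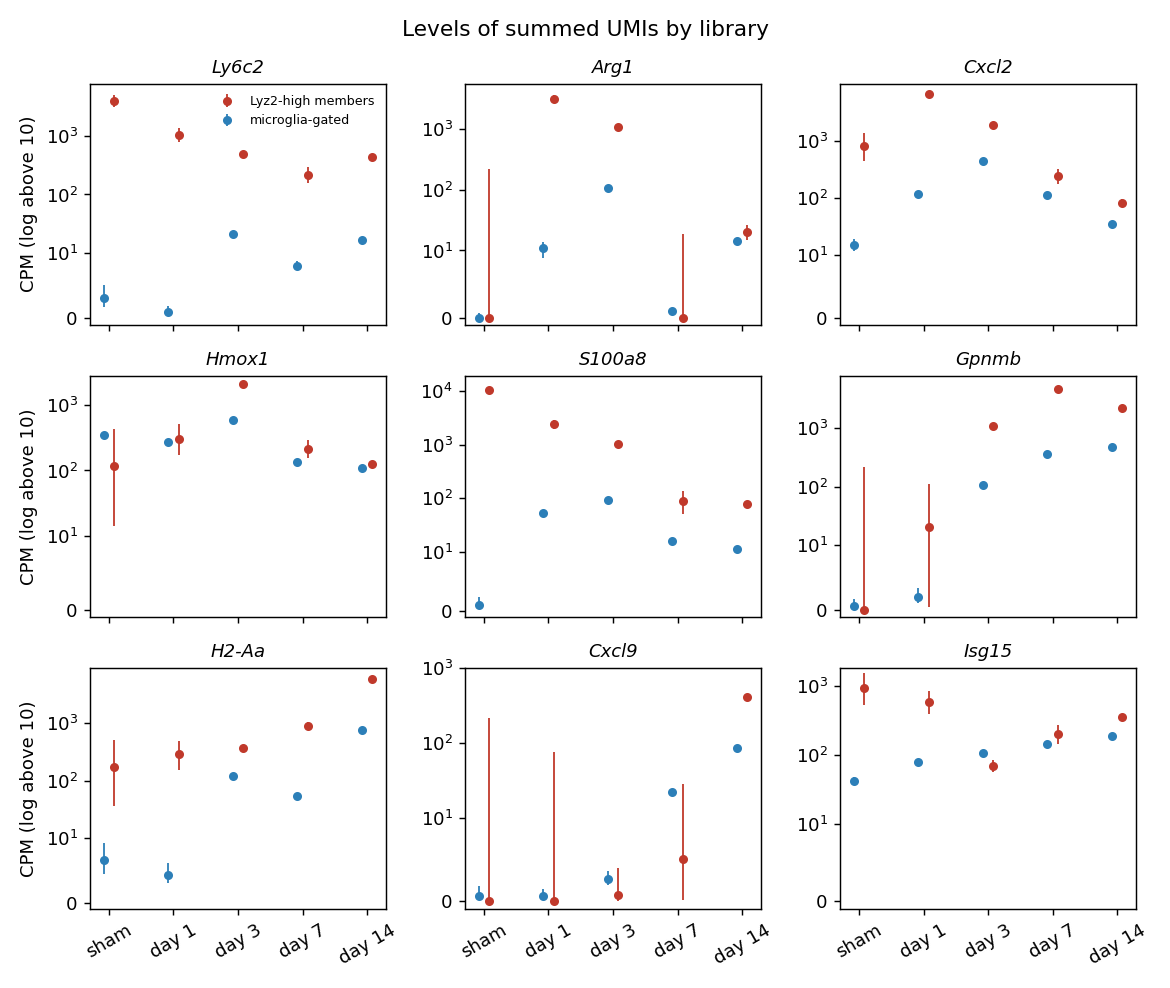
Level of 9 genes in CPM of summed UMIs, by library, for Lyz2-high members (red; 14, 21, 254, 19 and 187 barcodes from sham to day 14) and microglia-gated barcodes (blue); the axis is linear below 10 and logarithmic above, and lines are exact 95% Poisson intervals. Arg1, Cxcl2 and Hmox1 are lower at day 14 than at day 3, H2-Aa and Cxcl9 are higher, and the sham S100a8 comes from 1 member.

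Genes of major histocompatibility complex (MHC) class II, whose products present peptides to CD4 T cells, stood at the other end. All 7 measured genes of the list of 8 were at least 2-fold higher at day 14, with a median log2 ratio of 4.01. Over all members it was 8 of 8, with a median of 3.64. H2-Aa, the alpha chain of I-A, stood at 175 CPM in sham, 284 at day 1, 363 at day 3, 891 at day 7 and 5851 at day 14 in Lyz2-high members. The log2 ratio between day 14 and day 3 was 4.01 (3.88 to 4.14), and 6.62 with the thinned rule. H2-Ab1, its beta chain, stood at 297 and 5514 CPM, and H2-Eb1, the beta chain of I-E, at 251 and 4773 CPM at days 3 and 14. No member held more than 2.29% of the day 14 UMIs of these 3 genes.

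The invariant chain Cd74 stood at 828 and 12323 CPM. H2-DMa and H2-DMb1, which load peptides onto class II molecules, stood at 44.5 and 484 CPM and at 25.4 and 357 CPM. Ciita, the transactivator that class II genes depend on, had 0 UMIs at day 3 and 263 at day 14, so against a limit of 3 UMIs its log2 ratio was at least 5.67, or at least 4.16 with the thinned rule. Free RNA of these genes was present at day 14 and lower by far. Oligodendrocyte-gated barcodes held 4.18 CPM of H2-Aa at day 3 and 228 CPM at day 14. In barcodes thinned to 500 UMIs, 18 of 254 Lyz2-high members at day 3 (7.09%) and 116 of 187 at day 14 (62.0%) had an H2-Aa UMI, beside 0.265% and 2.79% of oligodendrocyte-gated barcodes. Microglia-gated barcodes also held more at day 14, with 121 and 756 CPM of H2-Aa. Dendritic cells carry the same genes, and 3 of the 187 Lyz2-high members carried 3 dendritic cell markers; the part of such cells was not tested.

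Class II genes share an upstream element with an X box and a Y box, bound by the RFX and NF-Y factors through which the Ciita product acts. The 150 bases before the start are shown for 4 of the list's genes, to set these elements beside the genes that were higher together over all members. Promoters from RefSeq's table (GRCm38.p6), taken by symbol, were searched for 5 of the 8 genes. Capitals mark GATTGG, the core of the Y box, on either strand, and AACNGAT, letters found within the X box, on either strand. The motifs do not overlap here, and in H2-Eb1 the second Y box core is on the other strand, as CCAATC. Each is written 5′ to 3′ on the gene's own strand: H2-Aa (chr17:34287824-34287973, minus strand), H2-Eb1 (chr17:34305717-34305866, plus strand), H2-DMb1 (chr17:34153041-34153190, plus strand) and H2-DMb2 (chr17:34145099-34145248, plus strand).
H2-Aa: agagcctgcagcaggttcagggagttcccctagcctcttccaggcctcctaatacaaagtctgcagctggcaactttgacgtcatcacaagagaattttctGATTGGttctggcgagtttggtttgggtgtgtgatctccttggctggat
H2-Eb1: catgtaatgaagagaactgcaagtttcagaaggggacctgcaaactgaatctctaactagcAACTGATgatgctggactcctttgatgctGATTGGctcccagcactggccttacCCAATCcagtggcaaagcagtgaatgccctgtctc
H2-DMb1: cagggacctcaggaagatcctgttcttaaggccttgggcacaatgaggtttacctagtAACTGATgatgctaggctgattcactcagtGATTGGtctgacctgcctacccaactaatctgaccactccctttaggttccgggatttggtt
H2-DMb2: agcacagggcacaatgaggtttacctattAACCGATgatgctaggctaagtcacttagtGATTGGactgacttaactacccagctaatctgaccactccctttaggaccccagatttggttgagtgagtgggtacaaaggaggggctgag

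GATTGG was found in 4 of the 5 genes searched, and the 4 genes shown are those that hold it. It was not in either H2-DMa promoter of the table. Of all 32851 promoters, 10.9% held it over the same 150 bases. AACNGAT was found in H2-Eb1, H2-DMb1 and H2-DMb2, ahead of GATTGG in each, and in 3.42% of all promoters. The H2-Aa window does not hold these exact letters. H2-DMb2 differed from the other 3 in its level, with 18.1 CPM in Lyz2-high members of day 14 and 174 CPM in the Lyz2-low ones. It was the list's gene that was not measured in Lyz2-high members, and was called higher over all members only.

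Interferon response genes were higher as well, 17 of 20 by at least 2-fold and none lower, with a median log2 ratio of 1.86 in Lyz2-high members and 1.97 over all members. Isg15, a ubiquitin-like protein, stood at 935 CPM in sham, 588 at day 1, 69.9 at day 3, 203 at day 7 and 358 at day 14. The level at day 3 was the lowest of the 5 libraries. Oasl2, of the family of oligoadenylate synthetases, stood at 23.3 CPM at day 3 and 190 CPM at day 14. Microglia-gated barcodes of day 3 and day 14 held 108 and 186 CPM of Isg15.

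The chemokine genes higher at day 14 included Cxcl9 and Cxcl10, known targets of interferon gamma, and Ccl5, an attractant of T cells. Cxcl9, a ligand of Cxcr3 on T cells, had 1 UMI at day 3 and 992 at day 14, or 0.706 and 408 CPM. Its log2 ratio was 9.17, with a counting interval from 6.69 to 14.5, or at least 3.57 with the thinned rule, where day 3 held 0 UMIs, and 20.9% of the day 14 UMIs lay in 1 member. Cxcl10 stood at 56.5 and 195 CPM, and Ccl5 at 24.7 and 289 CPM. Oligodendrocyte-gated barcodes of day 14 held 22.2 CPM of Cxcl9 and 142 CPM of Ccl5, so they came nearer to members for Ccl5 than for Cxcl9.

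Genes of macrophage differentiation and lipid handling did not move as a group in 1 direction under every setting. Of 15 macrophage genes 4 were higher and 1 lower, with a median of 0.68, and of 14 lipid genes 5 were higher and 2 lower, with a median of 0.55. With the rule applied to 500 thinned UMIs the medians were -0.32 and -0.12. C1qa, a chain of complement C1q, stood at 987 CPM at day 3 and 2709 CPM at day 14. It is also a microglial gene, and microglial markers moved with it. Summed over their list they stood at 565 CPM at day 3 and 1134 CPM at day 14. Of the Lyz2-high members, 19 of 254 (7.48%) and 73 of 187 (39.0%) carried 3 of them. These were counted at full depth, with medians of 5133 and 11771 UMIs. The part of microglial markers in these levels was not tested. Ms4a7 stood at 241 and 613 CPM, and Gpnmb, a glycoprotein of lipid-laden phagocytes, at 1092 and 2206 CPM. Over all members C1qa stood at 858 and 1722 CPM and Gpnmb at 918 and 1269 CPM.

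**Figure D4:**
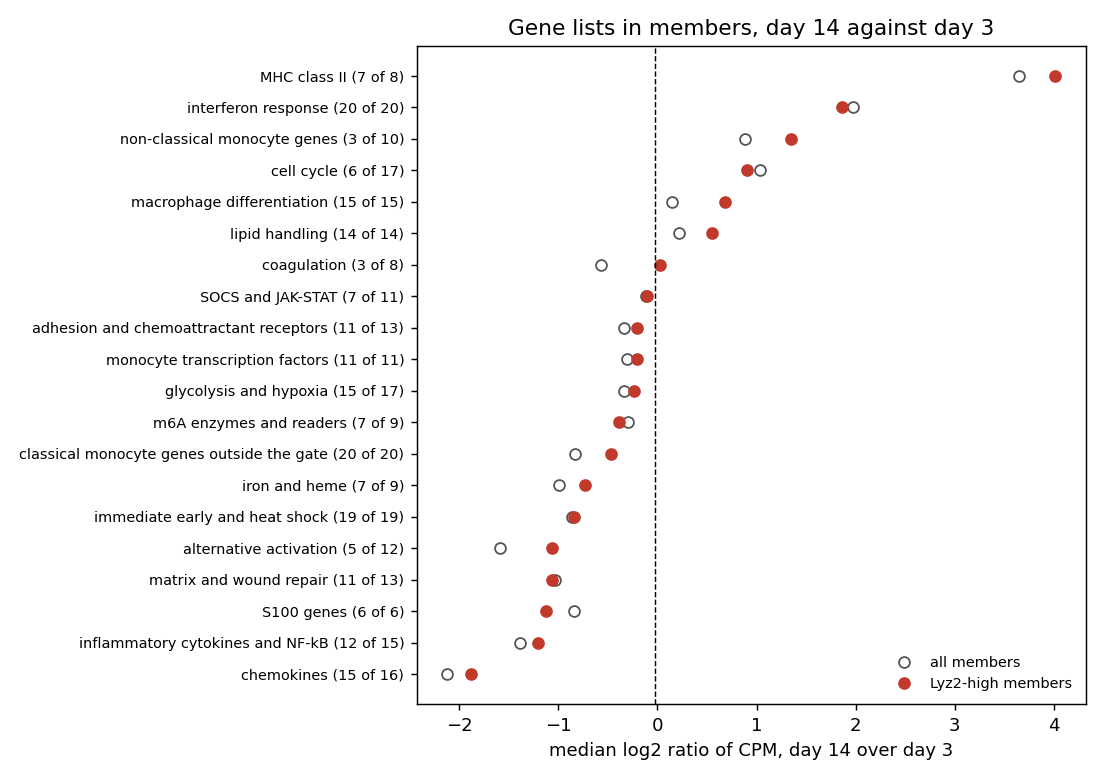
Median log2 ratio of CPM, day 14 over day 3, of each gene list for all members (open) and Lyz2-high members (filled); in brackets are the measured genes of the list in Lyz2-high members, and the dashed line is the median of all measured genes. MHC class II (4.01) and interferon response (1.86) lie farthest right, chemokines (-1.88) farthest left.

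Classical monocyte genes outside the rule did not move as 1 group between the 2 libraries. Of 20 genes 4 were at least 2-fold higher and 6 lower at day 14, with a median of -0.47. Ms4a4c, a membrane protein of monocytes, stood at 104 CPM at day 3 and 478 CPM at day 14. Ly6i, another member of the Ly6 family, stood at 13.4 and 119 CPM. On the other side, S100a6 stood at 3048 and 1013 CPM and F13a1 at 379 and 141 CPM. Cx3cr1, the fractalkine receptor that non-classical monocytes and microglia carry, stood at 38.8 and 431 CPM, while microglia-gated barcodes held 699 and 2011 CPM.

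Immunoglobulin genes appeared among the highest ratios of day 14 and were at the level of oligodendrocyte-gated barcodes. Igkc stood at 0 CPM in Lyz2-high members of day 3 and 341 CPM at day 14, while oligodendrocyte-gated barcodes of day 14 held 348 CPM and microglia-gated ones 354 CPM. Ighg2b stood at 107 CPM in members and 116 CPM in oligodendrocyte-gated barcodes of day 14. Car2 and Cryab, genes that oligodendrocytes express, also had high ratios, and 1 member held 30.8% and 30.9% of their day 14 UMIs.

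Lyz2-low and Lyz2-high members of day 14 were also set side by side, as a description. Of 5738 measured genes 545 (9.5%) were at least 2-fold higher in the 170 Lyz2-low members and 396 (6.9%) were lower. All 15 macrophage differentiation genes were lower, with a median of -2.97, and 12 of 14 lipid genes. The sets were split by Lyz2, which the macrophage gate also asks for, so lower macrophage genes partly follow from the split. Gpnmb stood at 52.3 CPM in the Lyz2-low members and 2206 CPM in the Lyz2-high ones, and Ms4a7 at 26.7 and 613 CPM. Klrd1, a receptor chain of NK cells, stood at 334 and 18.9 CPM, and Nkg7, of cytotoxic granules, at 123 and 3.29 CPM. MHC class II genes were not lower in the Lyz2-low members, with 2 of 8 at least 2-fold higher. Plac8 stood at 1533 and 833 CPM, but like Lyz2 it is a gene of the rule, so this describes the choice of members and is no finding.

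Among Lyz2-high members, those with a Ly6c2 UMI were set against those without. At day 3, with 171 and 83 members, 113 genes (2.27% of 4975) were at least 2-fold higher and 89 (1.79%) lower. S100a8 stood at 1389 CPM with Ly6c2 and 317 CPM without. Saa3, an acute-phase protein, stood at 452 and 114 CPM, and Mmp8, a collagenase, at 130 and 46.2 CPM. S100a8 and Mmp8 are among the neutrophil markers counted above. Of the 254 Lyz2-high members of day 3, 31 carried 3 neutrophil markers, and their part in these levels was not tested. H2-Ab1 stood at 203 and 498 CPM, with a log2 ratio of -1.30 (-1.58 to -1.01), and Pf4 at 1976 and 3684 CPM. Of 6 measured class II genes 4 were at least 2-fold lower with Ly6c2. At day 14, with 125 and 62 members, no class II gene of 7 was 2-fold apart and the median was -0.03. There 78 genes (1.47% of 5324) were higher and 136 (2.55%) lower.

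The planned comparisons with day 7 rest on 82 members, of which 19 were Lyz2-high. Between day 7 and day 3, 1364 of 6151 genes (22.2%) were at least 2-fold higher and 588 (9.56%) lower. TMM scaling, which moved ratios by 0.55 on the log2 scale, turned this into 801 and 1473. Between day 14 and day 7, 237 of 6284 (3.77%) were higher and 843 (13.4%) lower, or 727 and 435 with TMM scaling, a shift of 0.41 the other way. All 7 measured class II genes were higher at day 7 than at day 3 (median 2.22) and 7 of 8 were higher at day 14 than at day 7 (median 1.46). Arg1 had 1881 UMIs at day 3 and 0 at day 7. Summed astrocyte markers stood at 793 CPM in members of day 3, 4144 CPM at day 7 and 476 CPM at day 14, and the median mitochondrial share was 0.841%, 5.02% and 0.675%. The part of these in the day 7 values was not tested.

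Alkbh5, the m6A RNA demethylase, and Socs3, a feedback inhibitor of cytokine signalling, are the genes the study's title names. Alkbh5 (chr11:60536381-60558512, plus strand) stood at 58.5 CPM in sham members, 117 at day 1, 103 at day 3, 81.7 at day 7 and 57.4 at day 14. The first 2 of these rest on 1 and 8 UMIs. Between day 14 and day 3 the log2 ratio was -0.85 (-1.13 to -0.57) over all members and -0.55 (-0.89 to -0.20) over Lyz2-high members, short of 2-fold. Against microglia-gated barcodes of the same library the ratio was -0.17 (-0.39 to 0.05) at day 3 and -0.22 (-0.41 to -0.04) at day 14.

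Socs3 (chr11:117966079-117970047, minus strand) stood at 175, 528, 216, 66.0 and 125 CPM from sham to day 14. Its level was highest at day 1, from 36 UMIs, all of them in Lyz2-high members. The log2 ratio between day 14 and day 3 was -0.79 (-0.98 to -0.60). None of the 7 measured genes of the m6A list and none of the 7 of the SOCS and JAK-STAT list was 2-fold apart between day 14 and day 3.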

How the data were processed

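The members, gene lists and comparisons were chosen with earlier results of these data known. The deposited UMI counts are whole and not normalized; per the file headers, the authors made them with Cell Ranger 4.0.0. STAR, Seurat 3.2.0, GRCm38 and mm10 are listed in the submitters' processing notes with no role given. All 55450 gene IDs were found in GENCODE M21, which gave positions.

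From these counts, UMIs were summed over the barcodes of a set and scaled to CPM, with exact Poisson intervals. Intervals of ratios are exact conditional binomial ones and those of shares are Clopper-Pearson ones, at 95%. All cover counting error only. A set with 0 UMIs was placed at a limit of 3 UMIs, which gives a bound. Sets under 50 barcodes were not compared. The ratio step recovered what was put into simulated Poisson counts. These share the counting error its intervals assume and lack the uneven spread of UMIs over members, so only the computation was checked. Doublets were called with Scrublet (scanpy 1.11.5) on all barcodes, which marked 8.52%, 7.35%, 3.75%, 3.16% and 3.30% from sham to day 14, and were kept in the main values; 0, 3, 11, 3 and 14 members were called. TMM factors came from edgeR 4.0.16, used for scaling only. Microglia-gated barcodes held P2ry12 or Tmem119 and at least 2 further microglial genes, among them Cx3cr1, C1qa, C1qb and Csf1r. Some genes are not reported here. Oligodendrocyte-gated barcodes held 3 of Mog, Mag, Mobp, Ermn, Opalin and Cldn11. There were 20 lists with 263 genes, and genes of the rule entered no list median. Genes named between libraries were the 12 highest and 12 lowest ratios among those with at least 100 CPM in 1 set and 20 UMIs in both sets together, the most abundant or most different of each list, Alkbh5 and Socs3. Within a library, they were also the 15 with the highest lowest ratio over days 3, 7 and 14. A few list members named beyond this rule were chosen after their values were seen.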

Additional observations from a re-analysis of the deposited data

How the results depend on the processing

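The share of members depended on the rule. With at least 1000 UMIs per barcode the sham share was 0.231%. With the rule applied to 500 thinned UMIs the shares at days 1, 3, 7 and 14 were 0.0866%, 0.668%, 0.138% and 0.636%. Asking for 3 of the 6 genes gave 1.63%, 0.194% and 1.03% at days 3, 7 and 14. Leaving out members with markers of another class gave 0.118%, 2.36%, 0.121% and 1.28% at days 1 to 14. Lyz2 levels of at least 8, 16 and 32 per 10000, added after the data were seen, gave 3.00%, 2.57% and 1.82% at day 3, 0.194%, 0.154% and 0.138% at day 7, and 1.75%, 1.57% and 1.46% at day 14; at 32 the day 1 share was 0.134%.

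Counts of genes at least 2-fold apart depended on the filter. With a mean of at least 50 CPM they were 851 of day 7 against day 3, 458 of day 14 against day 7, 486 of day 14 against day 3 and 458 in its Lyz2-high members. Against macrophage-gated barcodes they were 195, 896 and 1036 at days 3, 7 and 14, and against microglia-gated ones 490, 383 and 355. Fewer genes enter under that filter. With the thinned rule they were 1568 for Lyz2-high members at day 14 against day 3, 774 and 940 against macrophage-gated barcodes at days 3 and 14, and 1547 and 1223 against microglia-gated ones. Those sets are smaller, and not all of their barcodes were members at full depth.

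Of the 614 list medians recomputed, 586 stayed within 1.5-fold of the main value, 22 did not, and 6 that were 2-fold or more changed sign; counting medians of any size, 45 changed sign. For coagulation genes at day 7 against day 3, the median was 0.091 at no more than 10% mitochondrial UMIs, 0.11 without called doublets and 0.40 as a mean over members. Alternative activation at day 14 against day 3 became 1.35, or 2.06 in Lyz2-high members, without members carrying other markers, and cell cycle genes became -0.31 at 50 CPM. With the thinned rule, macrophage differentiation and lipid handling in Lyz2-high members became -0.32 and -0.12. The cause was not tested. MHC class II at day 14 against day 3 ranged from 3.56 to 5.01 over the alternatives, and from 3.99 to 5.93 in Lyz2-high members. Several alternatives left fewer than 50 members at day 7 and gave no value there. No paired analysis was possible because each group is 1 library. The planned comparisons with sham and day 1 were not made, for want of members.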
